A study of Caenorhabditis elegans with 2 samples.

Results

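ChIP-seq regions of tagged NHR-232 were described in 6 protein genes of the Caenorhabditis elegans mitochondrial DNA, namely ND5 and ND4, CYTB, and COX1, COX2 and COX3. A deposited region was a member when its summit, the position of highest signal within the region, lay inside one of these genes. The irreproducible discovery rate (IDR) procedure, which uses the ranks of regions in both replicates, left 519 regions. Of these, 17 lay on mitochondrial DNA and 11 were members. The 519 were the strongest regions by signal of the list called on the pooled replicates. A place among them therefore does not show that both replicates held that region. The list called on the pooled replicates gave 12 members among 21094 regions, the list of replicate 1 gave 10 among 20530, and the list of replicate 2 gave 13 among 22891. The genes were chosen by the deposited peak calls themselves, so the signal values and ranks below are a description with no test.

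The samples were 2 biological replicates of 1 group. Both were whole hermaphrodites of strain OP489, with genotype unc-119(tm4063) III and the integrated transgene wgIs489, from which NHR-232 is expressed with GFP and FLAG at its C-terminus. Late embryos were collected 5 hours after egg bleaching, the chromatin was sonicated, and the tagged protein was precipitated with an anti-GFP antibody. All animals carried the tagged transgene, every tissue of the embryo was included, and the control experiment named in the labels was not analysed here, so no value without the tagged protein stands beside those below.

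Mitochondria keep a small circular genome of their own in many copies per cell, apart from the nuclear chromosomes. Its protein genes encode core subunits of the respiratory chain: ND5 and ND4 are proton-pumping subunits of complex I (NADH dehydrogenase), CYTB is the cytochrome b of complex III, and COX1, COX2 and COX3 form the core of complex IV (cytochrome c oxidase). Other subunits of these complexes are encoded elsewhere on the same molecule or by nuclear genes and then imported. NHR-232 is a nuclear hormone receptor, and members of this family, unusually large in nematodes, are known as DNA-binding regulators of nuclear genes.

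In the RefSeq annotation of WBcel235, the assembly that ce11 names, the mitochondrial DNA is 13794 bp long with 23.8% GC. All 36 of its genes, 12 for proteins, 2 for ribosomal RNAs and 22 for tRNAs, lie on the plus strand. The 6 genes follow each other from CYTB (chrM:4504-5616) through COX3 (chrM:5678-6445), ND4 (chrM:6506-7735), COX1 (chrM:7845-9422) and COX2 (chrM:9649-10344) to ND5 (chrM:11691-13274). Coordinates are 1-based on ce11, and all member summits lie in protein-coding sequence.

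The sequences under the strongest summit of each gene, and under the other strong summit of COX1, are shown to mark those positions. Levels and positions themselves come from the deposited lists. Each sequence is 161 bases of the plus strand, which is the coding strand. It is written 5′ to 3′ from RefSeq WBcel235 and centred on the pooled summit. Capitals mark the stretch from the lowest to the highest of the pooled, replicate 1 and replicate 2 summits.
ND5, chrM:12366-12526: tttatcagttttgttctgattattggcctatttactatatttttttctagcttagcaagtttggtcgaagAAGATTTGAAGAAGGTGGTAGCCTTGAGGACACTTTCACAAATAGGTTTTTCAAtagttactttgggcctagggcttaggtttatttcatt
COX1, chrM:9017-9177: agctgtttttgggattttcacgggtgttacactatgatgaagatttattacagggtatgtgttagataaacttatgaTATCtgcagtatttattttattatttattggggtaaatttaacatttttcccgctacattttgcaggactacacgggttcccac
COX1, chrM:8177-8337: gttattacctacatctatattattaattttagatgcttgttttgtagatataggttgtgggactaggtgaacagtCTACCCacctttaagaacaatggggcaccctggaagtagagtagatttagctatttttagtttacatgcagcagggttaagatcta
COX2, chrM:10095-10255: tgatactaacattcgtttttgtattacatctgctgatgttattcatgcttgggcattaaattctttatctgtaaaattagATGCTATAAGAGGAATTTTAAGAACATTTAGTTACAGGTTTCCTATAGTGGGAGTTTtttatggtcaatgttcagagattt
COX3, chrM:6064-6224: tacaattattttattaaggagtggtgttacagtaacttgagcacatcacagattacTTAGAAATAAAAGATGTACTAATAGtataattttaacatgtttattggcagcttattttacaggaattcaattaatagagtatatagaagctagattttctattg
ND4, chrM:7173-7333: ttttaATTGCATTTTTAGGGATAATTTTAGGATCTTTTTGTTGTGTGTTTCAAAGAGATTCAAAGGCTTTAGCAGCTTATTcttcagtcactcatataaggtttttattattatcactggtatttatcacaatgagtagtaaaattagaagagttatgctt
CYTB, chrM:4596-4756: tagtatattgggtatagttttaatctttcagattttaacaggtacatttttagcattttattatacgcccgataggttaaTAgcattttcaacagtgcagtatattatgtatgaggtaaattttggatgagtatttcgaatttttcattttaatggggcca
The capitals span 2 bases in CYTB, 4 at the COX1 summit 9097 and 6 at the COX1 summit 8257, so that all 3 lists put those summits at nearly the same base. In COX3 they span 25 bases, in ND5 54, in COX2 57 and in ND4 76. Every 50-base stretch under the 11 IDR members occurs once in the genome. Of the 13745 such stretches of the whole mitochondrial DNA, 98.8% occur once and 0 occur in a nuclear chromosome. Not all of the molecule outside the members is therefore unique.

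Of the 12 pooled members, 11 passed the IDR procedure, against 2.46% of all pooled regions. The procedure kept exactly the 519 strongest pooled regions by signal: the weakest kept region of the series had a signal of 89.4 and the strongest region left out had 89.3. The weakest member kept was a CYTB region at 97.3, and the member left out was a COX1 region at 38.0. Among as many strongest regions of each replicate stood 9 of 10 members of replicate 1, against 2.53% of its regions, and 12 of 13 members of replicate 2, against 2.27%. Since the same values chose the members, these shares describe the lists and support nothing further. The median signal of the 11 IDR members was 468 and that of the nuclear IDR regions was 133. Of the 11 IDR members, 9 carried the highest −log10 q value in the list, 2.21, a ceiling that leaves signal as the measure that orders them. The strongest IDR regions of ND1, ATP6 and the small ribosomal RNA gene, which are not members, carried it too. The share over all IDR regions is not given here, so the count does not set the members apart.

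ND5, the complex I gene with the strongest region of every list, had its stronger summit at 12446, 755 bp from the 5′ end of the gene and 47.7% of the way along it. The signal there was 528 in replicate 1, 782 in replicate 2 and 1294 in the pooled list, with rank 1 in all 3. The next strongest pooled region of the series, a nuclear one, had a signal of 863. The summits of the replicates lay at 12489 and 12436, the ends of the capitals in the printed sequence, and the replicate 1 region was 163 bp wide. A further ND5 region with its summit at 12645 had a pooled signal of 275 and rank 81. Replicate 2 held it at 12636 with a signal of 205, and replicate 1 listed no region there, its nearest summit being the strong one 156 bp away. ND5 was thus described by 1 region in replicate 1 and by 2 in replicate 2 and in the pooled list.

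ND4, the other complex I gene with members, had 1 IDR region with its summit at 7253, 60.7% along the gene. Its signal was 242 in replicate 1, 301 in replicate 2 and 519 in the pooled list, where it ranked 11. The ranks in the replicates were 12 and 11, so its place was nearly the same in all lists while its summit was not: replicate 1 put it at 7253 and replicate 2 at 7178. Each replicate also listed a weaker ND4 region downstream that the pooled list did not hold. In replicate 1 its summit lay at 7453 with a signal of 17.9 and rank 11202, and in replicate 2 at 7393 with a signal of 57.7 and rank 358.

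CYTB, the complex III gene, carried 3 IDR regions, the most of any of the 6 genes, and they overlapped in a chain. The summit nearest the 5′ end, at 4676, had signals of 225 in replicate 1, 249 in replicate 2 and 468 in the pooled list, and the 3 lists placed it within 1 bp. The middle region, with its pooled summit at 4954, had signals of 146 in replicate 1, 250.3 in replicate 2 and 388 in the pooled list. Its summit moved from 5034 in replicate 1 to 4952 in replicate 2. In replicate 2 the middle region was therefore level with the first, while in replicate 1 it was weaker, at 64.9% of the first. The most downstream region, at 5181, had a signal of 81.4 in replicate 2 and 97.3 in the pooled list, where it ranked 440. Replicate 1 listed no region there, and its nearest summit was 147 bp away.

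COX1, the complex IV gene for the catalytic subunit, carried 2 strong regions that did not overlap. The downstream one, at 9097 and 79.3% along the gene, had signals of 341 in replicate 1, 473 in replicate 2 and 809 in the pooled list, where it ranked 3. The upstream one, at 8257 and 26.1% along the gene, had signals of 245, 258 and 509.9 in the same order and ranked 13. The upstream summit showed the closest replicate signals of all members, with a ratio of replicate 2 to replicate 1 of 1.05 and summits at 8254 and 8252. In the pooled list they were 139 bp wide upstream and 265 bp downstream, both narrower than the usual 470 bp. A weak region with its summit at 8485 was listed in the pooled candidates with a signal of 38.0 and rank 6560, and in replicate 2 with a signal of 37.0 and rank 1081. It did not pass the IDR procedure and was not listed in replicate 1.

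COX3, the complex IV gene between CYTB and ND4, had its main summit at 6144, 60.7% along the gene. Signals were 295 in replicate 1, 463 in replicate 2 and 759.7 in the pooled list, with ranks 9, 3 and 6. A weaker region at 6359 had signals of 90.7 in replicate 1, 141 in replicate 2 and 99.6 in the pooled list. At this region alone the pooled signal was lower than that of replicate 2. The pooled signal divided by the sum of both replicates was 0.43 there, whereas at the other 8 members found in both replicates it lay between 0.956 and 1.01.

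COX2, the complex IV gene for the subunit that receives electrons from cytochrome c, had 1 region, with its pooled summit at 10175 and 75.6% along the gene. Its signal was 109 in replicate 1, 341 in replicate 2 and 439 in the pooled list. The rank was 124 in replicate 1 and 8 in replicate 2. Among members found in both replicates COX2 had the largest signal ratio, 3.13. Its summits lay at 10231 and 10175.

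**Figure D1:**
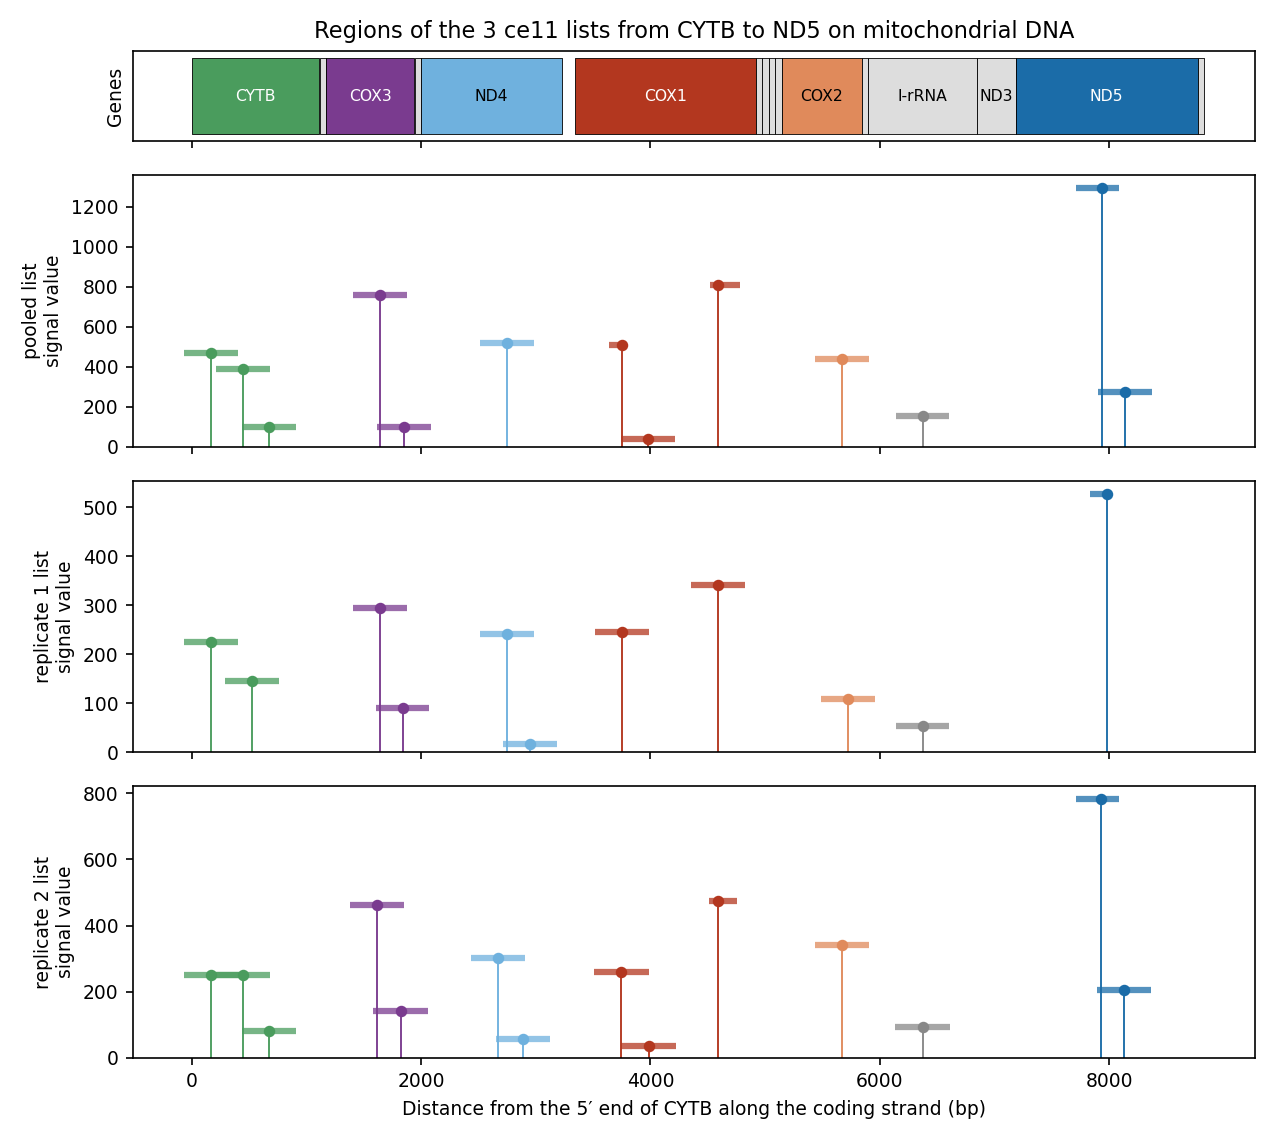
Position and signal of every region between CYTB and ND5 in the pooled list and in each replicate. The x axis is the distance in bp from the 5′ end of CYTB along the coding strand, the y axis the deposited signal value of each list on its own scale, bars span the regions and dots mark the summits, with genes drawn to scale above; the ND5 region stands highest in all 3 lists, at 1294, 528 and 782.

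Ordered by the strongest region of each gene, the pooled list ran ND5, COX1, COX3, ND4, CYTB and COX2, and replicate 1 gave the same order. Replicate 2 began alike with ND5, COX1 and COX3, but COX2 at 341 then came before ND4 at 301 and CYTB at 250.3. ND5 was separated from its neighbour in both replicates: its lower value, 528 in replicate 1, exceeded the higher value of COX1, 473 in replicate 2. For the other neighbours in the pooled order the ranges of the 2 replicate values overlapped. Compared within each replicate, COX1, COX3, ND4 and CYTB nevertheless followed in that order in both, and COX2 was the gene that changed place. With the median over the regions of a gene in place of the strongest, ND5 and COX1 kept places 1 and 2 and the other 4 genes changed place. The neighbours in rank were close: pooled regions one place above and below had signals of 863 and 797 around COX1, 777 and 742 around COX3, and 587 and 516 around ND4. Around CYTB they were 480.2 and 439.8, and around COX2 439.8 and 436.

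Members, chosen with these signals known, were concentrated at the top of each list. They made up 11 of 519 regions of the IDR list, 10 of 20530 of replicate 1 and 13 of 22891 of replicate 2. Of the 20 strongest regions, 7 were members in the IDR list, 6 in replicate 1 and 8 in replicate 2. Of the 100 strongest, 9, 7 and 10 were. Of the 10 strongest, the counts were 3, 3 and 4. When all mitochondrial regions were counted, the 20 strongest held 7, 6 and 10. In replicate 2 these took in ATP6 at rank 19 and the small ribosomal RNA gene at rank 20. The remaining members reached down to rank 440 in the IDR list, 11202 in replicate 1 and 1081 in replicate 2, so the same genes also held regions of low rank.

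Replicates were compared at IDR regions found in both, where a replicate region counted as found when its summit lay within 100 bp and it ranked among the 519 strongest of its list. Of the 11 IDR members, 9 were found in both replicates, 9 in replicate 1 and 11 in replicate 2. Of the 502 nuclear IDR regions, 345 were found in both, or 68.7%. That share depends on the limit on rank, since 488 of the 502 matched in both replicates without it. All 9 members had a higher signal in replicate 2, with ratios from 1.05 to 3.13 and a median of 1.48. At the 345 nuclear regions the median ratio was 1.03, the range 0.628 to 1.97, and 57.4% were higher in replicate 2. Of the 6 other mitochondrial IDR regions, 5 were higher in replicate 2, with a median ratio of 1.80. The depth of the libraries is unknown and the scale of the signal is not given, so the ratios at nuclear regions are the only measure here of how the scales of both replicates compare. The shift of the members was not tested, because with 1 library per replicate it cannot be told apart from any other difference between the 2 libraries.

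The limit on rank removes weak regions of either replicate and with them large ratios, so the nuclear ratios were also taken without it, an alternative added after the values were seen. Then 488 nuclear regions had a ratio, with a median of 1.05 and a 5th to 95th percentile range of 0.696 to 1.64. Of these, 44, or 9.02%, exceeded the median ratio of the members, and 1 exceeded the ratio of COX2. By rank instead of signal, 6 of the 9 members stood higher in replicate 2, 2 in replicate 1 and 1, the ND5 region, equally high. The nuclear regions split the other way, 149 ranking higher in replicate 2 and 191 in replicate 1. Across the 9 members, Pearson's r between the log2 signals of the replicates was 0.822 and Spearman's rho 0.8, and across the 345 nuclear regions they were 0.912 and 0.868. These are descriptions across regions that share both libraries, and the members lie on 1 molecule.

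**Figure D2:**
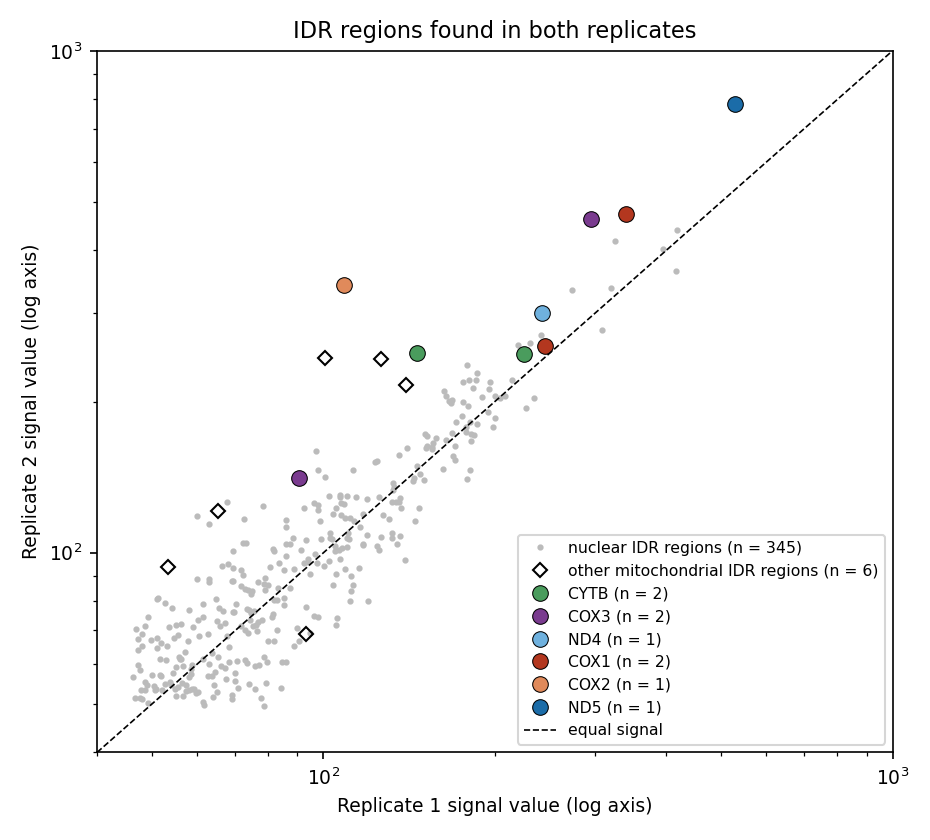
Signal of IDR regions found in both replicates, replicate 1 on the x axis and replicate 2 on the y axis, both log axes of the deposited signal value. Coloured circles are the 9 member regions, diamonds the 6 other mitochondrial regions and grey dots the 345 nuclear regions; all 9 members lie above the dashed line of equal signal, COX2 farthest from it.

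Summit positions differed between replicates by 1 to 82 bp at the 9 members, with a median of 24 bp, and 3 of the 9 lay within 10 bp. The median at nuclear regions was 18 bp. The closest were the first CYTB summit and both strong COX1 summits, and the farthest were the middle CYTB summit, the ND4 summit, the COX2 summit and the ND5 summit. Within genes, the strongest pooled summit of CYTB lay nearest the 5′ end, at 15.5% of the gene, as it did in replicate 1. In replicate 2 the middle CYTB summit, at 40.3%, was the stronger by 250.3 against 249. The strongest pooled summits of ND5, COX3, ND4, COX2 and COX1 lay at 47.7%, 60.7%, 60.7%, 75.6% and 79.3%.

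**Figure D3:**
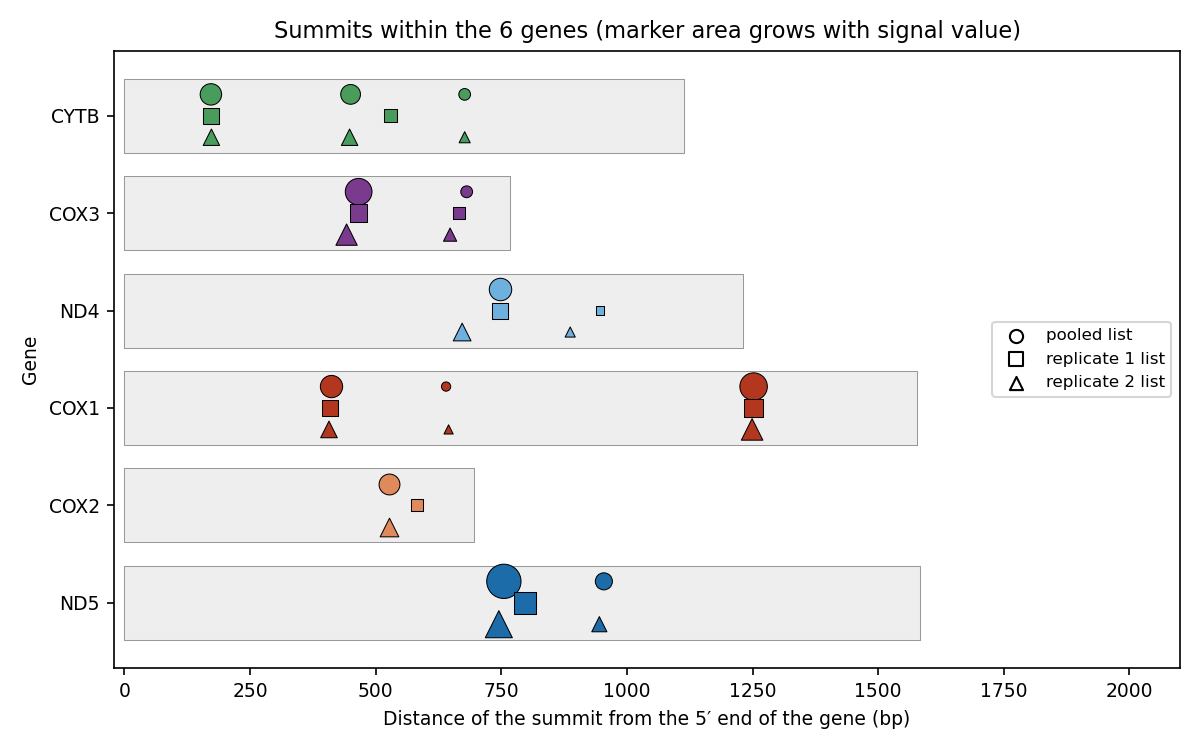
Summits of all member regions within each gene, drawn as distance in bp from the 5′ end of the gene, with the gene as a grey bar to scale. Circles are the pooled list, squares replicate 1 and triangles replicate 2, with marker area growing with the signal value within the plot; the COX1 and first CYTB summits line up across lists, and those of ND4, COX2 and ND5 are offset.

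Several members overlapped. In the IDR list 4 pairs of neighbours within a gene shared bases: 192 and 243 bp in CYTB, 255 bp in COX3 and 184 bp in ND5, with summits 199 to 278 bp apart. In all 4 pairs the downstream region was the weaker, at 83.1% and 25.1% of its upstream neighbour in CYTB, 13.1% in COX3 and 21.3% in ND5. The same held for 5 of 5 pairs in the pooled list, 3 of 3 in replicate 1 and 5 of 6 in replicate 2, where the exception was CYTB, at 100.5%. This order is common to the lists when overlapping nuclear neighbours are taken by coordinate, without regard to the strand of any gene. The region at the higher coordinate was the weaker in 17 of 17 such pairs of the IDR list. In the pooled list it was the weaker in 2301 of 2822, or 81.5%. The regions are therefore not independent of each other. Joined where they overlapped, the 11 members formed 7 blocks that covered 3668 bp, against a summed width of 4542 bp.

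The 7 blocks ran from chrM:4441-5415 in CYTB to chrM:12216-12879 in ND5. The longest gap between them, 1806 bp, separated the COX2 and ND5 blocks. It held part of the large ribosomal RNA gene, ND3 and the 5′ part of ND5. This gap lies between member blocks only, and the IDR region of the large ribosomal RNA gene, at 153, stood in it. IDR regions of the mitochondrial DNA covered 81.9% of CYTB, 69.9% of COX3, 58.2% of COX2, 45.4% of ND4, 41.9% of ND5 and 25.6% of COX1. The covered share did not follow the signal: ND5 and COX1, first and second in signal, had the lowest shares, and CYTB had the highest. Over the 6 genes 49.9% of bases were covered, and over the other mitochondrial genes 40.9%. Covered share depends on the set width of the regions as well as on their number. The most frequent width was 470 bp in the IDR, pooled and replicate 1 lists and 476 bp in that of replicate 2. Of the 11 IDR members 3 were narrower, both COX1 regions and the stronger ND5 region, and of the 502 nuclear IDR regions 102 had another width.

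The other mitochondrial genes set the range around the members. ND1 and ATP6, subunits of complex I and of ATP synthase, each held 2 IDR regions, with strongest signals of 358 and 349. The small ribosomal RNA gene held 1 at 368 and the large one 1 at 153. All 4 of these values lay below the strongest region of each of the 6 members, the lowest of which was COX2 at 439 in the pooled list. The same did not hold in replicate 1, where ND1 at 139.6 and the small ribosomal RNA gene at 126 stood above COX2 at 109. The 6 genes were listed with these values known. ND2 held no IDR region. Its summits were a pooled one with a signal of 26.1 and rank 17796 and a replicate 1 one with 36.8 and rank 971, and replicate 2 listed none. ND3, ND4L and ND6, further complex I genes, held no summit in any list. The members are therefore not all of the protein genes with regions, and complex I genes stood at both ends, ND5 at 1294 and ND3, ND4L and ND6 with none. The noncoding stretch of 466 bp at chrM:13329-13794, with 6.87% GC, was touched by no region of any list. Of the 22 tRNA genes, 10 were touched by an IDR region and 1 held a summit, in replicate 1.

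Base composition under the members was higher in GC than in the genes as a whole. In windows of 101 bp centred on the 11 IDR summits the GC content ran from 23.8% in the weaker COX3 region to 41.6% in the upstream COX1 region, with a median of 30.7%. All windows centred in the 6 genes had a median of 25.7% and a 5th to 95th percentile range of 14.9% to 35.6%. Of the 11 summits 9 lay above that median, and the upstream COX1 summit alone lay above the range. Higher GC was not particular to the members. The other mitochondrial IDR summits had 40.6% and 31.7% in ND1 and 30.7% and 19.8% in ATP6. Those in the small and large ribosomal RNA genes had 20.8% and 32.7%. Across the 11 regions, Spearman's rho between GC content and signal was 0.308 and Pearson's r with log2 signal 0.422, weak values over overlapping regions of 1 molecule and given as a description. The mean GC content of the 11 regions was 30.0% at the summit, 31.1% at 175 bp upstream, 24.3% at 600 bp upstream and 20.5% at 600 bp downstream. The part of base composition in the signal was not tested.

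**Figure D4:**
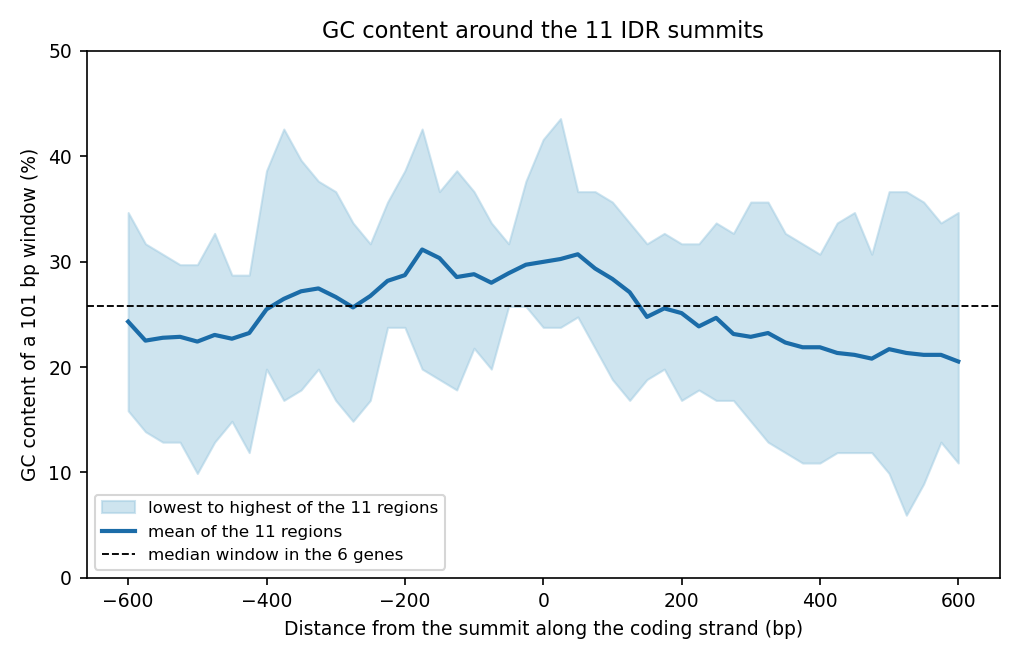
Mean GC content in percent of 101 bp windows around the 11 IDR summits of the members, against distance from the summit in bp along the coding strand. The line is the mean, the band runs from the lowest to the highest of the 11 regions, and the dashed line is the median of 25.7% over all windows in the 6 genes; the mean lies above it at the summit and falls to 20.5% at 600 bp downstream.

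Short motifs were looked up on both strands of the same windows. GAGAGA, a GA repeat, and AGGTCA, the consensus nuclear receptor half-site, were in 0 of the 11 windows, beside 2.76% and 1.38% of all windows centred in the 6 genes. AGTGCA, a half-site variant known from some nematode receptors, was in 1 of 11, beside 4.13% of windows. That match starts at position 4689 on the plus strand, 13 bp past the first CYTB summit, and can be read in the CYTB sequence above. GTTCGA, the core of the tRNA B box, did not occur in the mitochondrial DNA. These letters occur 0 to 4 times each in the whole molecule, so the counts say only whether they stand in these windows.

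A chosen list of 42 nuclear genes for the same machinery, not the full set, was set beside the members. It took in complexes I to IV, ATP synthase and mitochondrial DNA upkeep. The list was made with earlier results of these data known, so its shares are not those of the whole machinery. A gene was counted when a summit lay from 1000 bp upstream to 200 bp downstream of its annotated 5′ end. Of the 42 genes, 5 held an IDR summit, or 11.9%, beside 1.34% of the 19973 nuclear protein-coding genes, and 28 held a pooled summit, or 66.7%, beside 27.2%. No test was made of these shares, and an IDR summit was counted whether or not it was found in both replicates. The 5 were nuo-2 of complex I, cyc-1, the cytochrome c1 of complex III, cox-5B and cox-6A of complex IV, and mtss-1, a single-stranded DNA binding protein of the mitochondrial genome. Among the listed genes of complexes I, II and III they were 1 of 8, 0 of 4 and 1 of 7. They were 2 of 9 listed for complex IV with cytochrome c, 0 of 9 for ATP synthase and 1 of 5 for upkeep.

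Their pooled signals lay below those of 9 of the 11 IDR members and above those of the other 2, the CYTB region at 97.3 and the COX3 region at 99.6. The nuo-2 summit had signals of 48.9 in replicate 1, 47.4 in replicate 2 and 100.2 in the pooled list, the cyc-1 summit 39.3, 59.6 and 101, and the cox-5B summit 43.5, 59.9 and 106. The mtss-1 summit had 85.9, 60.6 and 147, and, like that of nuo-2, was lower in replicate 2, while the other 3 were higher. The cox-6A summit had 67.8, 95.1 and 156, and lay at -829 bp from the 5′ end of the gene, inside a small noncoding RNA gene, so its assignment to cox-6A rests on the promoter width. The best pooled rank among the 5 was 216, for cox-6A. Matching of replicates kept only the 519 strongest regions of each list. The nuo-2 summit lay outside that limit in replicate 2, at rank 567. Those of cyc-1 and cox-5B lay outside it in replicate 1, at ranks 800 and 597. By the rule used for the members, these summits were not found in both replicates. The mtss-1 summit ranked 181 in replicate 1 and 326 in replicate 2, and the cox-6A summit 265 and 172, within the limit.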

How the data were processed

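The deposited lists hold, per the labels and the README files of the deposit, regions called against a control file in the ce11 and ce10 builds. They comprise 1 list per replicate, 1 from the pooled replicates and 1 of regions passing the IDR procedure. The deposited signal values were used as the authors gave them, on a scale that is not given in the sources used here, as are the aligner and peak caller. The −log10 q value is likewise as deposited. Read totals were not used here, so depth is unknown and no interval could be given. A region's position was its summit, and its rank that of its signal in its list. Gene positions and sequence came from RefSeq WBcel235, nuclear genes from Ensembl release 115, and no coordinates were converted between builds.

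Python 3.11.15 with numpy 2.4.6, pandas 2.3.3 and matplotlib 3.10.9 was used. Placement, matching and joining of regions were tested on simulated data. Members were the regions with summits in the 6 listed genes. The rule for other names took all other mitochondrial genes, the neighbours in rank, and those of 42 listed nuclear genes with an IDR summit in the promoter. The members and lists were chosen with earlier results of these data known. No test was made, since 1 group of 2 replicates has no conditions to compare and the peak calls chose the members. The labels give the replicates as biological without naming separate cultures. Alternatives varied region placement, matching distance, the IDR list, the build and the measure of order.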

Additional observations from a re-analysis of the deposited data

How the results depend on the processing

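For the counts, 21 alternatives stayed within 1.5 times the reported value and 2 did not. The 21 include placements of regions that changed no count. They also include falls from 9 to 6 that lie on the limit itself. These were members found in both replicates within 50 bp, and members higher in replicate 2 by rank. Placing regions by midpoint, by any overlap or by most of their bases left 11, 12, 10 and 13 members in the IDR, pooled, replicate 1 and replicate 2 lists. Joining overlapping regions moved the 17 mitochondrial IDR regions to 11 blocks and the 11 members to 7, because neighbours within a gene share bases. In the stronger 259 IDR regions 15 mitochondrial regions and 9 members remained. The ce10 IDR list held 18 mitochondrial regions among 668, beside 17 among 519 in ce11, so the list itself differed in length between builds. Members found in both replicates numbered 6 with summits within 50 bp, 11 within 200 bp and 11 with any overlap. Among the 519 strongest regions of a single replicate, members numbered 12 without replicate 1 and 9 without replicate 2. By rank in place of signal, 6 of 9 matched members stood higher in replicate 2. With the median over regions, COX2 moved from place 6 to 4, COX3 from 3 to 5, ND4 from 4 to 3 and CYTB from 5 to 6. No paired analysis was possible because there is only 1 group. Unknown depth limits every comparison of signal between replicates. The deposited regions were called against a control file, but the control itself was not analysed here. That limits every statement about the tagged protein.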
